A study of Mus musculus with 40 samples.

Results

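The 10 genes described here encode transcription factors of the trophectoderm, the outer layer of the mouse blastocyst from which the placenta forms. They are Cdx2, Gata2, Gata3, Hand1, Tfap2a, Tfap2c, Ets2, Msx2, Irx3 and Dlx3, and they were chosen by name as known factors of that layer, with earlier results of these data known. A probe was found for 9 of the 10 on each of 3 array designs, and no probe was matched to Dlx3. In all, 31 of 104064 gene probes belonged to these genes. On the 2 larger designs Cdx2 and Hand1 had 2 probes each, and every other factor had 1 probe of identical sequence on the 3 designs.

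The values came from 40 arrays of mouse embryonic stem (ES) cells, in which Cy3 carried the sample and Cy5 a universal mouse reference RNA, so that each level below is log2(Cy3/Cy5) of one probe. ZHBTc4 cells, labelled as strain 129/Ola, carry a Tet-repressible Pou5f1 transgene with both native alleles disrupted, and all groups of both time courses share this genotype, the 0 hr controls included. The line and its transgene were taken from the titles and the study's methods. Neither states that the native alleles are disrupted, which is background on this line. The treatment text deposited with the late arrays was not used, because it describes a different construct, a Tcl1 exchange vector in EBRTcH3 cells. One time course had 2 arrays at each of 0, 3, 6, 12 and 24 hr with Tet (the early arrays, 10 in all), and the other had 3 arrays at 0 hr and on each day from 24 to 120 hr (the late arrays, 18 in all). The remaining 12 arrays measured 4 lines, 1 array per line and medium, after 3 days in medium with LIF, lacking LIF, or holding LIF and 1 µM retinoic acid (RA). These lines were Nanog episomal #3, a clone with Nanog on an episomal pPYFloxed vector, with its parental line MG1.19 (both 129Sv), and Nanog/EF1#6, a clone with Nanog integrated under pEF6/IRES neo, with its parental line ES 129.3 (both 129SvEv-Tac). Each transgenic line was a single clone. Parental lines were assigned by strain, since the deposited texts disagree on them, and the parental arrays were, per the labels, taken over from an earlier submission.

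In the blastocyst, Pou5f1 (Oct3/4) is kept in the inner cell mass and Cdx2 in the trophectoderm, and loss of Pou5f1 turns ES cells towards trophoblast. Gata2 and Gata3 are zinc finger factors that drive trophoblast genes, Tfap2a and Tfap2c are AP-2 factors of the trophoblast lineage, and Hand1 is a basic helix-loop-helix factor needed for trophoblast giant cells. Ets2 acts in trophoblast stem cells. Msx2, Irx3 and Dlx3 are homeodomain proteins, of which Dlx3 is needed for the placental labyrinth and Msx2 is a target of BMP signals.

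RefSeq start regions (build GRCm38.p6, 250 bases before to 50 after a start) were at hand for 7 of the 10 factors, 9 regions in all. Those of the 3 factors with the largest changes described below and of Cdx2, whose probe stayed near its starting value, are shown for comparison, 5′ to 3′ on the gene's own strand. Gata2 had 2 such regions, of which only the second is shown, and the first held no match to the motifs searched. Capitals mark matches, on either strand, to any of 6 motifs searched: GCCNNNGGC (AP-2), the letters AGATAA for GATA factors, ATGCAAAT (octamer, bound by Pou5f1), TTTATG (Cdx2), CAGCTG (E-box) and TAATTG (homeodomain).
Gata2, second start, chr6:88198414-88198713, plus strand: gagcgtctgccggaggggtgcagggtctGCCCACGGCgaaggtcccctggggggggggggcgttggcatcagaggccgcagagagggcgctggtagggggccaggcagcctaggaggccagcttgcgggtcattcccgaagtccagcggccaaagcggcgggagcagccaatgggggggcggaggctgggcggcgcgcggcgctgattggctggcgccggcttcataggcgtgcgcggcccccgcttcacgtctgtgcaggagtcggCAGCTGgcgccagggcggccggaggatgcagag
Gata3, chr2:9878551-9878850, minus strand: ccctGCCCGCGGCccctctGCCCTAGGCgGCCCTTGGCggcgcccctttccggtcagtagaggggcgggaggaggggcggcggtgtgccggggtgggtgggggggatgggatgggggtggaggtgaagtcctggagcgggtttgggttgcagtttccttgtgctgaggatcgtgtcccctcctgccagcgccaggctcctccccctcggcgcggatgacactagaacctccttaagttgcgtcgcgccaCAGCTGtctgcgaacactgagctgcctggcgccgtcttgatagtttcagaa
Irx3, chr8:91801605-91801904, minus strand: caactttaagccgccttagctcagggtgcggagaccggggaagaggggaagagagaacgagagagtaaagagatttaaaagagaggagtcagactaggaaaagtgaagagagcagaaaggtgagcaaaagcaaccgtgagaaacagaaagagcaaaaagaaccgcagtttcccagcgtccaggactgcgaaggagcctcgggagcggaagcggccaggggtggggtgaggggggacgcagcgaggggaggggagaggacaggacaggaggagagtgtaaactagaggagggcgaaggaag
Cdx2, chr5:147307200-147307499, minus strand: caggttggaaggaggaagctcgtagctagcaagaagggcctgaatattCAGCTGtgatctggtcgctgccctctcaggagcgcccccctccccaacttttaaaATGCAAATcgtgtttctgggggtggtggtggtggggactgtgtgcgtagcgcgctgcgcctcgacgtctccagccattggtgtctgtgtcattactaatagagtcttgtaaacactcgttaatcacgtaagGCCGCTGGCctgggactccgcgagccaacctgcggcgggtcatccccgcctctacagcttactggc

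The AP-2 letters stood 3 times in the Gata3 region, once in that of Cdx2 and once at the second start of Gata2, and 16.6% of 32851 RefSeq start regions of the same length held them. The octamer stood in the Cdx2 region at positions -147 to -140 from the start, and 1.74% of all regions held it. The E-box letters were in the regions of Cdx2, Gata3 and Gata2 (second start) and in 16.3% of all regions. None of the 6 motifs was found in the windows of Irx3, Msx2, Ets2, the first start of Gata2 or the second start of Tfap2a. The window of the first start of Tfap2a held 1 Cdx2 match and 1 homeodomain match, letters found in 11.9% and 8% of all regions. A match is a match of letters and not a measured binding site.

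Pou5f1 served as the check of the labels of the time courses. On the late arrays its log2 ratio was 1.91, 2.40 and 2.04 at 0 hr and lay between -0.30 and 0.12 on all 15 arrays with Tet. On the early arrays the probe shared with the late design was at 2.92 and 1.52 at 0 hr, at 0.29 and 0.48 by 3 hr, and at -0.53 and -0.61 at 24 hr. A second Pou5f1 probe on the early design changed by only -0.55 ± 0.15 (SE) at 24 hr, so the 2 probes disagreed. Median Cy3 signals ran from 530.5 to 776.4 over the 40 arrays, against local backgrounds of 365 to 390, and the Cy3 signal that 95% of negative controls stayed under was higher at 0 hr on the late arrays (627 to 653) than at later times (506 to 571). The labels do not say whether arrays of one group came from separate cultures, so p-values measure the spread between these arrays. In a population, more cells with an RNA and more RNA per cell cannot be told apart.

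After 120 hr with Tet, 5 of the 9 measured factors were higher than at 0 hr on the late arrays and none was lower. A call required an adjusted p of at most 0.05 (limma, two-sided, Benjamini-Hochberg over all gene probes of the design) and a change of at least 1.5-fold. By this rule 12.1% of 21045 gene probes were higher and 8.61% lower at 120 hr, and the median change was 1.36 on the log2 scale over the 9 factors against -0.001 over all probes. Day by day the count of factors was 5, 6, 6, 5 and 5, while the share of all probes called higher grew from 4% at 24 hr through 5.5%, 7.96% and 10.6% to that 12.1%, and the share called lower from 3.61% through 4.79%, 6.41% and 7.3%. The 5 were Gata2, Gata3, Irx3, Msx2 and Tfap2c at every time, and Hand1 made the sixth at 48 and 72 hr.

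**Figure D1:**
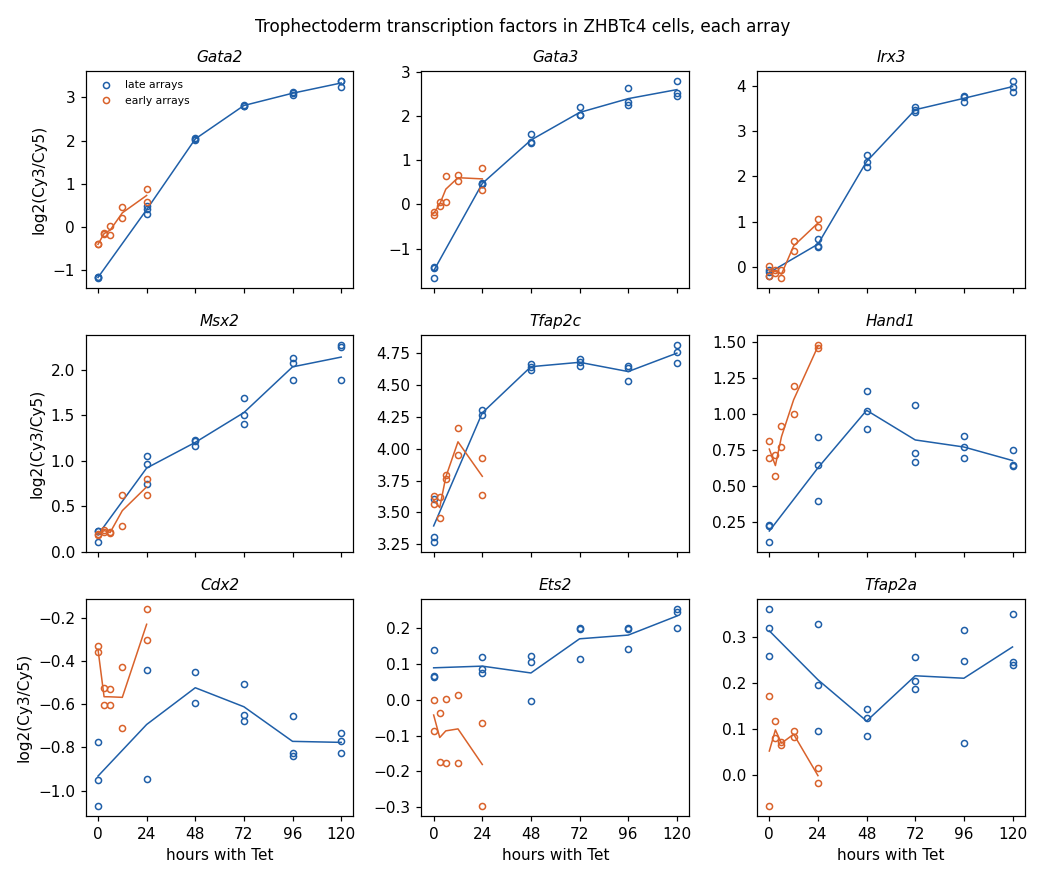
Log2(Cy3/Cy5) of each array against hours with Tet for the 9 measured factors, with lines through the group means (blue, late arrays; orange, early arrays; each panel has its own scale, and only the probe shared by all 3 designs is drawn). Gata2, Gata3 and Irx3 rose by over 4 log2 units by 120 hr, Msx2 and Tfap2c rose by 1.96 and 1.36, and the late group means of Cdx2, Ets2 and Tfap2a lay within 0.41 of those at 0 hr.

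Both Gata factors rose steeply. Gata2 was at -1.16, -1.18 and -1.19 at 0 hr on the late arrays, at 0.48, 0.41 and 0.29 at 24 hr, and at 3.38, 3.24 and 3.39 at 120 hr. No array with Tet came near the 0 hr arrays. The change was 1.57 ± 0.05 (SE) at 24 hr and 4.51 ± 0.05 at 120 hr (22.8-fold, adjusted p = 9.93e-19). Of the 120 hr change, 34.9% was reached at 24 hr, 71.2% at 48 hr and 88.4% at 72 hr. Fold and shares rest on 0 hr signals near the background, described below, and with no background correction the 24 hr change was 0.47, under 1.5-fold.

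Gata3 was at -1.42, -1.43 and -1.67 at 0 hr on the late arrays, at 0.46, 0.47 and 0.49 at 24 hr and at 2.80, 2.46 and 2.53 at 120 hr. Again no array with Tet overlapped those without. Its change was 1.98 ± 0.11 at 24 hr (3.94-fold) and 4.10 ± 0.11 at 120 hr (17.2-fold, adjusted p = 4.44e-15). Gata3 had gone further by the first day than Gata2 or Irx3, with 48.2% of its 120 hr change at 24 hr and 72.2% at 48 hr.

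Irx3 had the smallest rise of the 5 factors on the first day and one of the largest at the end. The 3 arrays of each time stood at -0.09, -0.11 and -0.20 (0 hr), 0.61, 0.43 and 0.45 (24 hr), 2.20, 2.33 and 2.47 (48 hr), and 4.13, 3.87 and 3.99 (120 hr). No group overlapped another. Only 15.3% of the 120 hr change was present at 24 hr, against 59.7% at 48 hr and 87.6% at 72 hr. The 24 hr change was 0.63 ± 0.08 (adjusted p = 8.1e-06) and that by 120 hr 4.13 ± 0.08 (17.5-fold, adjusted p = 1.45e-16). Without one of the 24 hr arrays (replicate 1) the 24 hr change was 0.57, just under 1.5-fold. With no background correction it was 0.14 (adjusted p = 0.217). The mean raw Cy3 signal of Irx3 was 574.7 at 0 hr and 571.5 at 24 hr.

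The starting levels of Gata2 and Irx3 were close to the background of the arrays. Their raw Cy3 signals at 0 hr were 562 to 576 and 572 to 579, below the negative-control limit on 3 of 3 arrays, though the scanner software marked every spot as well above its local background. Their mean signals at 120 hr were 4125 and 5060. With no background correction the 120 hr change was 2.83 for Gata2, 2.74 for Gata3 and 3.00 for Irx3, so the direction and the call at that time held, while the folds and the shares reached per day depended on how background was handled.

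Msx2 rose more evenly. It was at 0.22, 0.11 and 0.23 at 0 hr, at 1.05, 0.97 and 0.74 at 24 hr, and at 1.90, 2.28 and 2.25 at 120 hr. All later arrays lay above all 0 hr arrays. The change was 0.73 ± 0.10 at 24 hr and 1.96 ± 0.10 at 120 hr (3.88-fold, adjusted p = 5.72e-11), and 68.7% of it was reached at 72 hr. With no background correction the changes at 24, 48 and 72 hr were 0.20, 0.31 and 0.50, none of them 1.5-fold, and that at 120 hr was 0.81 and passed. On Cy3 alone the 24 hr change was 0.54 and missed the fold. The Msx2 signal was low, above the negative-control limit on 2 of 3 arrays at 0 hr. Its mean raw Cy3 signal was 637 at 0 hr, 618 at 24 hr and 639 at 48 hr.

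Tfap2c differed from these in that its RNA was already abundant relative to the reference before Tet. Its log2 ratio was 3.31, 3.27 and 3.61 at 0 hr, 4.26 and 4.30 on the 2 usable arrays at 24 hr (1 spot was dropped as an outlier), and 4.82, 4.68 and 4.76 at 120 hr. The 0 hr arrays were the lowest of the course. Its change was 0.89 ± 0.08 at 24 hr, 1.25 ± 0.07 at 48 hr and 1.36 ± 0.07 at 120 hr (2.56-fold, adjusted p = 1.87e-10), so 92.2% of the rise was in place at 48 hr.

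Hand1 was highest at 48 hr and lower afterwards. It was at 0.23, 0.22 and 0.11 at 0 hr, at 1.16, 1.02 and 0.89 at 48 hr, and at 0.63, 0.74 and 0.64 at 120 hr. The 48 and 120 hr arrays did not overlap, though the step from 48 to 72 hr (-0.21 ± 0.11, adjusted p = 0.277) did not pass. The change was called at 48 hr (0.84 ± 0.11, adjusted p = 1.08e-05) and at 72 hr (0.63 ± 0.11, adjusted p = 0.000153), and the values at 96 and 120 hr, 0.58 and 0.49, were below 1.5-fold with adjusted p of 0.00028 and 0.00123. Without replicate 1 of the 72 hr arrays the 72 hr change was 0.51 and no longer passed. With no background correction neither time passed, with changes of 0.26 at 48 hr and 0.23 at 72 hr. The mean raw Cy3 signal of Hand1 was 647.5 at 0 hr, 611 at 24 hr and 633 at 48 hr.

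Cdx2, Ets2 and Tfap2a did not pass at any time on the late arrays. The study's methods call its array probe for Cdx2 unresponsive, so the values below describe the probe and do not show that the RNA stayed level. The study took its Cdx2 data from PCR instead, and reports Cdx2 as activated within the first day with Tet. The arrays of Cdx2, the factor best known for setting the trophectoderm fate, ran from -1.07 to -0.78 at 0 hr, stood at -0.45 and -0.60 at 48 hr, and ran from -0.83 to -0.73 at 120 hr, with 1 outlier spot dropped at each of 24 and 48 hr. Its largest change was 0.41 ± 0.12 at 48 hr (1.33-fold, adjusted p = 0.0184), under the fold required, and at 120 hr the change was 0.16 ± 0.11 (adjusted p = 0.282). The raw Cy3 signal of this probe lay between 626 and 843 on the 18 arrays, outlier spots included, and was above the negative-control limit on each.

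Ets2 changed by at most 0.15 ± 0.05, at 120 hr (adjusted p = 0.0191), and its 3 arrays then stood at 0.25, 0.24 and 0.20 against 0.14, 0.06 and 0.07 at 0 hr. Tfap2a changed by at most -0.20 ± 0.07, at 48 hr (adjusted p = 0.0326). Its raw Cy3 signal at 0 hr was below the negative-control limit on 3 of 3 arrays and at each later time it was above that limit on 1 of 3 arrays.

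Between neighbouring days the steps of Gata2, Gata3 and Irx3 passed the test, fold included, up to 72 hr. From 24 to 48 hr the steps were 1.64 ± 0.05, 0.98 ± 0.11 and 1.83 ± 0.08, where 1.73% of probes were called higher and 1.65% lower, and from 48 to 72 hr they were 0.78 ± 0.05, 0.63 ± 0.11 and 1.15 ± 0.08, where 1.92% were higher and 0.817% lower. The latter step of Gata3 was 0.56, under 1.5-fold, without replicate 1 of the 72 hr arrays. From 72 to 96 hr and from 96 to 120 hr no factor passed (limma), where 1.11% and 0.418% of probes were higher and 0.242% and 0.162% lower. At an unadjusted p under 0.05 there were 4 and 2 factors. None passed by a t test with the study's variance rule, the larger of a probe's own error variance and the average at similar signal. The largest of these later steps was that of Msx2 from 72 to 96 hr, 0.50 ± 0.10 (adjusted p = 0.00467), which missed only the fold.

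On the early arrays the first factor past the threshold was Gata2. At 3 and 6 hr none of the 9 factors was called (limma), against 0% and 2.11% of all probes called higher and 0% and 0.105% lower. At an unadjusted p under 0.05 there were 0 and 2 factors, and none passed by the t test with the study's variance rule. At 12 hr 1 factor was called higher, where 0.209% of probes were higher and 0.383% lower, and at 24 hr 3 were, where 7.05% were higher and 1.97% lower. The t test with the study's variance rule called none of the 9 at 12 or at 24 hr. The study itself reports Gata2 and Irx3 as activated within 12 hr. With no background correction the 3 factors called at 24 hr, Gata2, Gata3 and Irx3, were at 0.53, 0.58 and 0.45, under 1.5-fold, and the factor called at 12 and 24 hr was then Hand1, by its second probe (0.59 and 0.76).

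Before Tet the pair of Gata2 arrays stood at -0.41 and -0.40, and the pairs that followed at -0.17 and -0.15 (3 hr), 0.03 and -0.18 (6 hr), 0.20 and 0.45 (12 hr), and 0.58 and 0.87 (24 hr). No array with Tet was as low as the 0 hr arrays. The 12 hr change was 0.73 ± 0.13 (adjusted p = 0.0421), and by 24 hr the change was 1.14 ± 0.13 (2.2-fold, adjusted p = 0.000765). The 12 hr call rested on single arrays, for it was lost without either 0 hr array, either 3 hr array or replicate 2 of 12 hr, with a change of 0.61 to 0.73 and an adjusted p of 0.086 to 0.31.

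Irx3 was still at its starting level at 6 hr. Its pairs of arrays were -0.22 and 0.01 (0 hr), -0.26 and -0.08 (6 hr), 0.57 and 0.35 (12 hr), and 1.05 and 0.89 (24 hr). The arrays of 12 and 24 hr were above both 0 hr arrays and those of 3 and 6 hr overlapped them. The 12 hr change of 0.56 ± 0.12 did not pass (adjusted p = 0.078), and that by 24 hr, 1.07 ± 0.12, did (2.1-fold, adjusted p = 0.000802).

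The pairs of Gata3 were -0.16 and -0.25 (0 hr), 0.05 and 0.64 (6 hr), 0.67 and 0.54 (12 hr), and 0.32 and 0.83 (24 hr). The arrays of 6 and 24 hr spread widely. The 12 hr change of 0.81 ± 0.20 did not pass (adjusted p = 0.107), while the 24 hr change of 0.78 ± 0.20 did (1.72-fold, adjusted p = 0.0242). The 24 hr call was lost without either 0 hr array or without replicate 2 of 24 hr, with changes of 0.53 to 0.82. With a correction for loss of Cy5 signal the 24 hr change was 0.36 and did not pass.

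The 2 probes of Hand1 gave different pictures on the early arrays. The probe shared with the late design was at 0.70 and 0.81 at 0 hr and at 1.48 and 1.46 at 24 hr, a change of 0.71 ± 0.10 (1.64-fold, adjusted p = 0.00292), which passed. The second probe, brighter and therefore the one used for counts, was at 0.99 and 1.15 at 0 hr and at 1.46 and 1.45 at 24 hr, a change of 0.38 ± 0.09 (adjusted p = 0.0193). Yet its raw Cy3 signal rose from 821 and 763 to 2841 and 3492, while the Cy5 signal of the same spots, which holds the same reference RNA on every array, rose from 535 and 553 to 1088 and 1248. On Cy3 alone its change was 2.58.

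**Figure D2:**
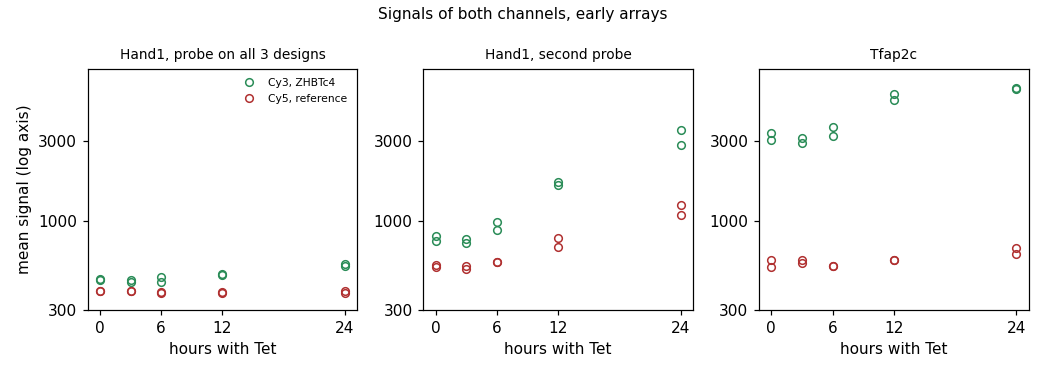
Mean signals on a log axis against hours with Tet for 3 probes on the 10 early arrays (green, Cy3 of ZHBTc4 cells; red, Cy5 of the reference RNA). For the second Hand1 probe both channels rose, whereas for the shared Hand1 probe Cy5 stayed between 376 and 388.

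Tfap2c showed a smaller form of the same discrepancy. Its pairs of log2 ratios were 3.57 and 3.63 (0 hr), 4.16 and 3.95 (12 hr), and 3.93 and 3.64 (24 hr), and the 24 hr change of 0.19 ± 0.12 did not pass. Its Cy3 signals were 3312 and 3044 at 0 hr and 6064 and 6114 at 24 hr, with Cy5 at 538 and 593 and then at 641 and 700, and on Cy3 alone the change was 0.93. Why Cy5 moved was not tested.

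The 24 hr change of Msx2 on these arrays was 0.53 ± 0.12 (1.44-fold, adjusted p = 0.0159), under the fold required. Ets2 and Tfap2a stayed within 0.14 of their 0 hr means. Of the 2 Cdx2 probes, the shared one stood at -0.33 and -0.36 at 0 hr and below that at 3, 6 and 12 hr, with changes of -0.22 at each (adjusted p = 0.734, 0.296 and 0.276), and with 0.12 ± 0.11 at 24 hr. The other, with Cy3 signals of only 424 to 448, changed by 0.43 ± 0.10 at 24 hr (1.35-fold, adjusted p = 0.0199). Neither Cdx2 probe was called at any time.

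The 24 hr point is in both experiments, and the changes of 4 of the 9 factors differed between them at an adjusted p under the threshold when both were fitted together on the 19163 shared probes, of which 31.6% differed at that threshold. Gata3 changed less on the early than on the late arrays (0.78 against 1.98, difference -1.20 ± 0.21, adjusted p = 0.000229), as did Tfap2c (difference -0.70 ± 0.14, adjusted p = 0.000747) and Gata2 (-0.44 ± 0.12, adjusted p = 0.00762). Irx3 changed more on the early arrays (1.07 against 0.63, difference 0.44 ± 0.14, adjusted p = 0.0184). Only the differences of Gata3 and Tfap2c were also over 1.5-fold, as were those of 15.2% of all shared probes. On Cy3 alone the early and late changes of Tfap2c were close, 0.934 and 0.986. Those of Gata3 were 0.835 and 2.138, of Gata2 0.829 and 1.644, and of Irx3 1.405 and 0.761. The differences on Cy3 alone were not tested. Design, hybridisation series and culture all differ between the experiments and cannot be told apart.

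**Figure D3:**
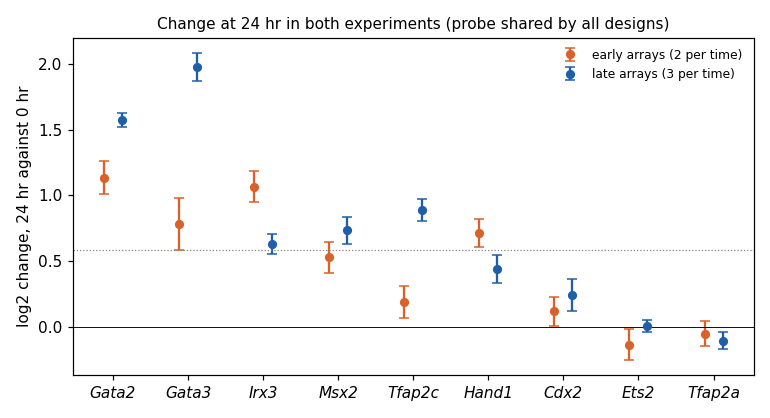
Log2 change from 0 to 24 hr with its SE for each measured factor on the early (orange) and late (blue) arrays, on the probe shared by all designs; the dotted line marks 1.5-fold. The points of Gata3 are at 0.78 and 1.98 and those of Irx3 at 1.07 and 0.63.

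The order of rise was read from the time at which the mean value crossed 1.5-fold, by straight lines between time points of the joined courses, in which the late means were shifted to meet the early ones at 24 hr. This is a description with no test. Gata3 crossed at 6.85 hr, Gata2 at 9.82 hr, Irx3 at 12.6 hr, Hand1 (shared probe) at 19.8 hr, Msx2 at 28.8 hr and Tfap2c at 71.4 hr. Cdx2, Ets2 and Tfap2a did not cross within 120 hr in these values, and for Cdx2 the limit of its probe given above applies. So 4 of the 9 factors had crossed by 24 hr.

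The first places were not firmly separated. With 1 array left out at a time, the crossing ran from 4.79 to 9.58 hr for Gata3, from 8.91 to 11.6 hr for Gata2, from 11.2 to 15.3 hr for Irx3 and from 17.9 to 21.7 hr for Hand1. Msx2 ran from 23 to 36.2 hr, and Tfap2c from 40.6 hr to not crossing at all, without replicate 1 of the early 24 hr arrays. On the late course alone, where the first interval is a whole day, the order was Gata3 (7.1 hr), Gata2 (8.92 hr), Tfap2c (15.8 hr), Msx2 (19.1 hr), Irx3 (22.3 hr) and Hand1 (32.8 hr). With a correction for loss of Cy5 signal Gata3 crossed at 29.3 hr instead of first, and at a 2-fold threshold only Gata2 (20 hr) and Irx3 (22.4 hr) crossed within the first day. On Cy3 alone 6 factors crossed by 24 hr, Gata3 at 7.85 hr, Gata2 at 9.35 hr, Irx3 at 9.87 hr, Tfap2c at 9.99 hr and Hand1 and Msx2 at 16.8 hr, and Cdx2 did so at 44.7 hr. With the authors' normalized values Gata3 was at 10.1 hr, Irx3 at 11 hr, Gata2 at 11.5 hr, Hand1 at 11.7 hr, Msx2 at 21.5 hr and Tfap2c at 100 hr, and Tfap2a crossed downwards at 22.7 hr.

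Over the 18 late arrays the 4 factors Gata2, Gata3, Irx3 and Msx2 followed each other closely. Pearson's r was 0.988 between Gata2 and Gata3, 0.982 between Gata2 and Irx3, and lowest, at 0.936, between Irx3 and Msx2. Hand1 followed Gata2 with 0.685 and Tfap2a with -0.542. These values are descriptions over arrays that share their time points.

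By the same measure the named genes most alike to Gata2 were Yaf2 (r = 0.996), Arhgap29 (0.995) and Arid3a (0.994), with 120 hr changes of 2.15, 1.89 and 3.21. For Gata3 they were Rhou (0.997), Arid3a (0.993) and St3gal5 (0.993). Irx3 was closest to Perp (0.995), Ndrg1 (0.995) and Csrp1 (0.994), and Msx2 to Dok4 (0.995), Aktip (0.992) and Tmem129 (0.990). Tfap2c, over its 17 usable arrays, was closest to Ccdc127 (0.983), Klf7 (0.979) and Gadd45b (0.978). Arid3a, a DNA-binding protein with a known part in trophectoderm development, was the only gene on 2 of these lists.

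Other genes of the trophectoderm and trophoblast were also higher. Of 30 listed genes, 21 were measured on the late arrays, and at 120 hr 12 of them had risen, none had fallen and the median change was 1.15, where 12.1% of all probes were higher and 8.61% lower. The largest rises were those of the keratins of simple epithelia, Krt19 (5.62), Krt18 (5.49) and Krt7 (4.10), and of the X-linked homeobox gene Rhox6 (3.33). On the early arrays 6 of 25 had risen at 24 hr and 1, Ppard, had fallen (-0.65), where 7.05% of all probes were higher and 1.97% lower.

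Few relatives from the same families were called. Of 23 relatives 16 were measured on the late arrays, none was called at 120 hr (limma), where 12.1% of all probes were higher and 8.61% lower, and their median change was 0.04. Irx4 passed at 24 hr only (0.64, adjusted p = 3.92e-08), Gata6, a factor of primitive endoderm, at 48 hr only (0.89, adjusted p = 9.94e-08), and Msx1 at 72 and 96 hr (0.61 and 0.59). On the early arrays Gata6 was the only one of 17 to pass at 24 hr (1.24 ± 0.19, adjusted p = 0.00327), where 7.05% of all probes were higher. Whether relatives differed from the 9 factors was not tested.

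**Figure D4:**
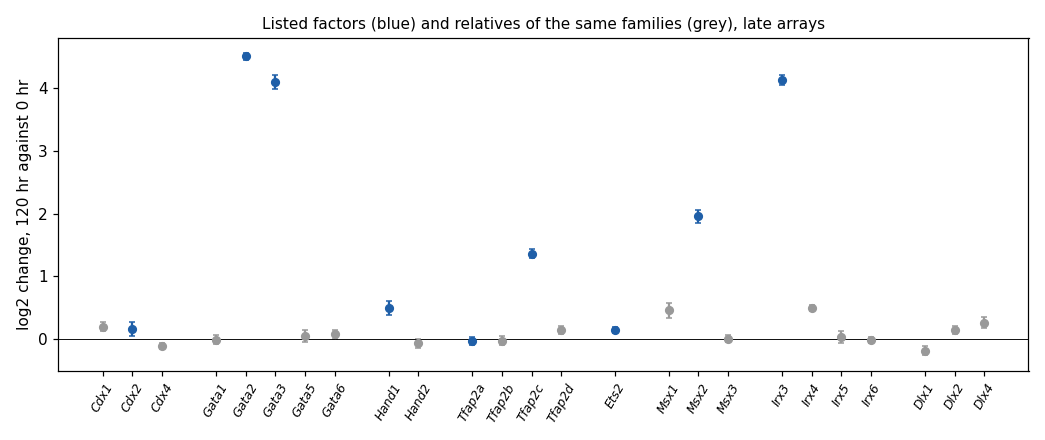
Log2 change from 0 to 120 hr on the late arrays with its SE, for the measured factors (blue) and their measured relatives (grey), grouped by family. The blue points of Gata2, Gata3 and Irx3 are above 4, and every grey point is between -0.19 and 0.49.

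Markers of other fates were measured on the same arrays. At 120 hr 7 of 8 ES cell markers had fallen, and the sum of their raw Cy3 signals fell from between 71590 and 111800 to between 6688 and 9603. None of 5 mesoderm and 6 neural markers was called. Of 8 primitive endoderm markers 2 were higher (Lamb1, 1.83, and Dab2, 0.77) and 1 lower, with sums of 5736 to 6595 at 0 hr and 5105 to 6394 at 120 hr. Of 6 fibroblast markers only Postn was higher, by 4.12, and the sums were 3682 to 3837 and 3552 to 4185. Their part in the changes of the factors was not tested.

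In the 4 lines, Gata2, Gata3, Irx3 and Msx2 were higher with RA, 4 of the 5 factors that rose after Tet. The RA arrays were compared with the LIF arrays with the line as a block, and 4.64% of 41006 probes were called higher and 1.23% lower. The 4 lines stood as replicates, but each clone shares its strain with a parental line. The lines are thus not independent, and the p-values of all comparisons of media may be too small. RA had acted in every line by the levels of Rarb, an RA receptor gene that RA itself induces, which lay between -0.17 and 0.12 with LIF and between 1.57 and 2.56 with RA. None of the 9 factors was called lower.

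Gata3 had the largest change. In MG1.19, the episomal clone, ES 129.3 and the integrated clone its log2 ratio was -1.23, -1.98, -2.08 and -1.80 with LIF and 0.67, 0.67, -0.12 and 0.49 with RA, so that every RA array was above every LIF array. The change was 2.20 ± 0.23 (4.61-fold, adjusted p = 0.000673).

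Irx3 went, in the same order of lines, from 0.19, -0.38, 0.30 and -0.64 with LIF to 2.29, 1.93, 2.52 and 0.62 with RA, a change of 1.97 ± 0.35 (3.92-fold, adjusted p = 0.00707). The integrated clone stood apart, with an RA level well below the other 3 lines. That array also kept Pou5f1 at 2.42, where the other 3 RA arrays were at 0.49 to 0.82, and Rarb at 1.57 against 1.94 to 2.56. Without it the change of Irx3 was 2.25, and all 4 factors passed. Without the MG1.19 line the change was 1.93 and did not pass (adjusted p = 0.0723). By the t test with the study's variance rule the change of Irx3 over all lines did not pass (adjusted p = 0.0735). Within the 129SvEv-Tac lines alone, Msx2 passed (1.02) and Gata3 (2.13, adjusted p = 0.0546), Gata2 (1.31, adjusted p = 0.0543) and Irx3 (1.74, adjusted p = 0.186) did not, while in the 129Sv lines all 4 passed. The array images of the 129SvEv-Tac lines were also processed by the scanner software on a day of their own.

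Gata2 went from 0.00, -0.91, -0.94 and -1.32 to 1.40, 0.77, 0.47 and -0.10. The groups met, since the RA level of the integrated clone was just under the LIF level of MG1.19, but Gata2 was higher with RA in 4 of 4 lines. The change was 1.43 ± 0.18 (2.69-fold, adjusted p = 0.00148). Msx2 went from 0.35, 0.47, 0.30 and 0.28 to 1.93, 1.89, 1.5 and 1.12 without overlap, a change of 1.26 ± 0.12 (2.4-fold, adjusted p = 0.000406).

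The other 5 factors were not called with RA. Tfap2c, the remaining factor that rose after Tet, changed by -0.26 ± 0.17 and was lower in 3 of 4 lines. Cdx2, with the limit given above for its probe, changed by -0.21 ± 0.22. The 2 Hand1 probes changed by 0.17 ± 0.06 (adjusted p = 0.099) and -0.04 ± 0.07. Ets2 and Tfap2a stayed within 0.07 of the LIF mean.

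**Figure D5:**
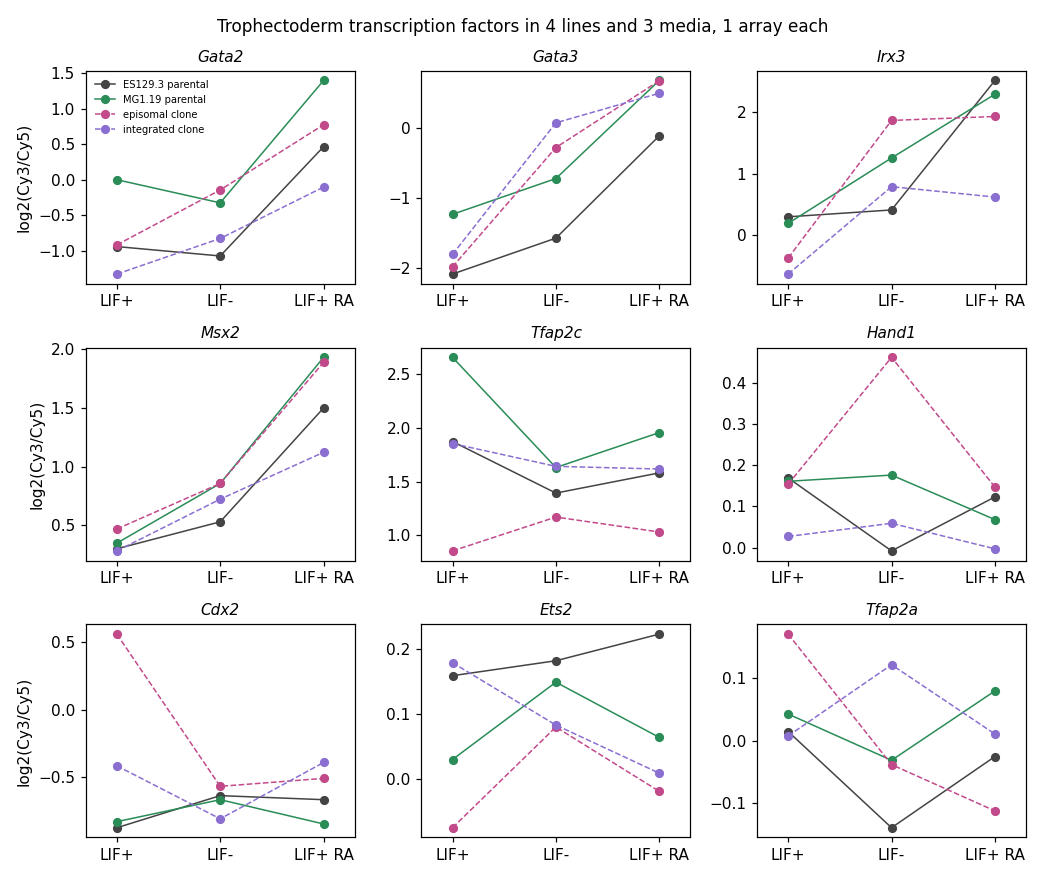
Log2(Cy3/Cy5) with LIF, without LIF and with LIF plus RA for each of the 4 lines (solid, parental; dashed, transgenic; 1 array per point; each panel has its own scale). Gata2, Gata3, Irx3 and Msx2 were higher with RA than with LIF in every line, and the line labelled Nanog episomal had the lowest Tfap2c in all 3 media.

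Markers of other fates also moved with RA. Of 8 primitive endoderm markers 5 were higher (Gata6 by 2.22, Foxa2 by 1.86, Lamb1 by 1.55, Sox17 and Sox7 by 1.48), and the sum of their raw Cy3 signals went from between 11150 and 18320 with LIF to between 23770 and 95300 with RA. Among fibroblast markers Dcn, Twist1 and Col1a2 were higher, 3 of 6, with sums of 3311 to 4938 and 3730 to 6123, and 6 of 8 ES cell markers were lower. Of 6 neural markers Zic1 was higher (0.59), and none of 5 mesoderm markers was called. Their part in the changes of the 4 factors was not tested. Of the trophoblast list 8 of 24 genes rose with RA and none fell, and of the relatives Gata6 and Msx1 (1.12) rose.

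Without LIF only Gata3 passed, with 0.505% of all probes called higher and 0.532% lower. LIF withdrawal showed in Socs3, a target of LIF signalling, at 0.42 to 1.04 with LIF and -2.25 to -1.64 without. The levels of Gata3 without LIF were -0.72, -0.28, -1.57 and 0.07 in the order of lines above, higher than with LIF in 4 of 4 lines. The change was 1.15 ± 0.23 (2.22-fold, adjusted p = 0.0498), at the very edge of the threshold, and it did not pass without any one of the 4 lines (0.91 to 1.36). Irx3 was also higher in 4 of 4 lines (1.25, 1.87, 0.41 and 0.79), with a change of 1.21 ± 0.35 that did not pass (adjusted p = 0.141). Msx2 changed by 0.39 ± 0.12 (adjusted p = 0.152) and Gata2 by 0.20 ± 0.18.

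Between RA and absence of LIF, Gata3 (1.06 ± 0.23, adjusted p = 0.0177), Gata2 (1.22 ± 0.18, adjusted p = 0.00308) and Msx2 (0.87 ± 0.12, adjusted p = 0.00214) were higher with RA, where 4.08% of probes were higher and 1.7% lower, and Irx3 was at 0.76 ± 0.35 (adjusted p = 0.22). The order of the 3 media was thus RA, no LIF, LIF for Gata3, with both steps past the threshold, the lower one only at its edge. For Gata2 and Msx2 only RA passed, though the Msx2 arrays without LIF (0.86, 0.86, 0.53 and 0.72) all lay above those with LIF.

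The lines labelled as transgenic were checked by Nanog itself. The study's methods report raised Nanog in both clones by real-time PCR, more so in the episomal one. With LIF, without LIF and with RA the log2 ratio of the array probe was 1.28, 1.47 and 0.66 in the line labelled Nanog episomal, against 1.91, 1.93 and 1.26 in MG1.19. So on this probe Nanog was lower in all 3 media (-0.57 ± 0.06, adjusted p = 0.588), opposite to the label and to that PCR. In the integrated clone it was 2.48, 2.00 and 2.49, against 1.61, 1.83 and 1.27 in ES 129.3, higher in all 3 media, though the difference did not pass (0.75 ± 0.21, adjusted p = 0.12). Over both pairs of lines the difference was 0.09 ± 0.27 (adjusted p = 0.888). The SEs for each clone come from its media and do not measure spread between clones. Whether this probe lies within the sequence of the transgenes was not established here, so the comparisons of transgenic with parental lines, those per line above included, are between lines as labelled.

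None of the 9 factors was called between the lines labelled transgenic and parental over 6 pairs of arrays (limma), where 0% of probes were higher and 0.00488% lower. At an unadjusted p under 0.05 there was 1 factor, and none passed by the t test with the study's variance rule. Pairs of one clone are not independent, so these p-values are too small. The SE of a single clone against its parental line measures spread over media and not between clones. The largest mean differences were -0.49 ± 0.26 for Tfap2c (adjusted p = 0.357) and -0.46 ± 0.31 for Irx3. The 2 clones were not alike for Tfap2c. In the line labelled Nanog episomal it was at 0.86, 1.17 and 1.03 with LIF, without LIF and with RA, below MG1.19 (2.66, 1.63 and 1.96) in each, a difference of -1.06 ± 0.27 (adjusted p = 0.588), where 0% of probes were called. In the integrated clone the levels (1.86, 1.64 and 1.62) were close to those of ES 129.3 (1.87, 1.39 and 1.58). In that pair 1.69% of probes were higher and 2.44% lower, and none of the 9 factors was called (limma; 1 at an unadjusted p under 0.05 in each pair of lines).

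Cdx2 in the line labelled Nanog episomal with LIF was the highest of its 12 arrays, at 0.56, with the other 11 between -0.88 and -0.39. This was on the shared probe. The second Cdx2 probe was at 0.00 on the same array, within its range of -0.19 to 0.10, so the high value was on 1 of 2 probes.

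Whether the response to the media differed between the lines labelled transgenic and parental was tested as an interaction. Each transgenic line was a single clone, so its p-values do not measure spread between clones of one construct. No factor passed for LIF withdrawal (limma; 5 factors at an unadjusted p under 0.05) or for RA (1 factor), and 0% of probes did in either test. For Gata3 the change on LIF withdrawal was 1.70 in the line labelled episomal and 1.87 in the integrated clone, against 0.51 in each parental line, a difference of 1.28 ± 0.17 with an unadjusted p of 0.000202 and an adjusted p of 0.764. For Irx3 the changes were 2.24 and 1.42 in the same lines against 1.07 and 0.11 in the parental lines, a difference of 1.24 ± 0.46 (adjusted p = 0.815).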

How the data were processed

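The members and gene lists were chosen with earlier results of these data known. Per the file headers, spot intensity values (mean signals, median local backgrounds and processed signals) were made with Agilent Feature Extraction A.7.5.1. The authors also deposited normalized log10 values, adjusted through the reference and for loss of Cy5 signal, which served as an alternative. One deposited column of these is treated as a score, since it holds a code for missing values.

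Mean signals were background-corrected (normexp, offset 50) and loess-normalized within arrays (span 0.3) with limma 3.58.1 in R 4.3.3. Outlier spots were dropped, saturated spots kept and spots of a probe averaged. Linear models with moderated variances were fitted per design (two-sided), with line as a block for the media and line pair and medium for the transgenes, and p-values were adjusted over all gene probes (Benjamini-Hochberg). No dye swap was made, so dye bias cannot be told apart from level. Fits were tested on simulated data.

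Probes were named by accession, by identical sequence on another design or by tables of the study, giving 15289 of 42006 early, 10919 of 21052 late and 15792 of 41006 line probes a gene. The probe with the highest mean intensity stood for a gene in counts. Genes named were the members, Pou5f1, the 3 genes most like each member called at 120 hr (Pearson's r, late arrays), and up to 4 of each list with the largest changes there. Other genes named from the lists were chosen after their values were seen. Precision is limited by the number of arrays.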

Additional observations from a re-analysis of the deposited data

Results flagged for a closer look

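The change from 0 to 24 hr with Tet was measured in both time courses, and for 4 of the 9 factors it differed between them by a test of the difference itself (limma, 19163 shared probes, of which 31.6% differed at the same adjusted p, with no fold required). The early minus the late change was -1.197 for Gata3 (adjusted p = 0.000229), -0.699 for Tfap2c (adjusted p = 0.000747), -0.438 for Gata2 (adjusted p = 0.00762) and 0.437 for Irx3 (adjusted p = 0.0184). On Cy3 alone the early and late changes of Tfap2c were close (0.934 and 0.986), while those of the other factors named here stayed apart. The groups of 2 or 3 arrays and the single arrays per line and medium were too small for a search for outlying arrays.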

How the results depend on the processing

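Over all alternatives 807 counts of factors called were recomputed, of which 777 stayed within 1.5 times the reported count, and of 1083 recomputed changes of called factors 1032 passed again, 51 did not and 0 reversed. At 12 hr on the early arrays, 1 factor higher became 0 with the authors' values (7 factors listed), the processed signals, a normexp offset of 16 or the t test with the study's variance rule, 2 with correction of Cy5 bleaching and 5 with Cy3 alone, while with no background correction the 1 was Hand1 and not Gata2, and 0 to 1 with an array left out. At 24 hr the 3 early calls became 6 with Cy3 alone, 1 with no background correction (Hand1, by its second probe, and not one of the 3) and 0 with that t test. On the late arrays the 5 calls at 24 hr became 2 with no background correction, and the step from 96 to 120 hr gave 1 call with Cy3 alone. Without LIF the 1 call became 0 with bleaching correction, no background correction, that t test, either strain alone (added after seeing the data) or any line left out (0 to 0). With RA the 4 calls became 1 in the 129SvEv-Tac lines alone. The 4 factors crossing by 24 hr became 2 at 2-fold. The 2 differences between the courses at 24 hr became 4 with processed signals or bleaching correction and 0 with no background correction, settings added after seeing the data. The cause of these shifts was not tested.

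Same-numbered arrays deviated together in some pairs and not in others (mean r of 0.114 over 20 early pairs, -0.136 to 0.337, and 0.151 over 45 late pairs, -0.43 to 0.748). These values do not settle whether the numbers pair arrays. With the replicate number as a block the late counts at the 5 times were 5, 6, 6, 5 and 5, the early ones 1 at 12 hr and 3 at 24 hr, and Tfap2c changed by 0.878 at 24 hr on the late arrays. The block changed no call of a factor in either course. A block by scan date was not run, since no such date was used here. Low signals limit Gata2, Irx3 and Tfap2a at 0 hr on the late arrays. Among the other called factors, Gata3, Msx2 and Hand1 also started close to the negative-control limit.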
